A study of Homo sapiens with 12 samples.

Results

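The genes described here are 7 transcription factors that drive or accompany the change from an epithelial to a mesenchymal cell state, SNAI1, SNAI2, TWIST1, TWIST2, ZEB1, ZEB2 and PRRX1, and 2 products of mesenchymal cells, CDH2 and VIM. They were taken by symbol from a table of 26334 genes, and all 9 were present and passed the filter on low counts that left 12775 tested genes. The libraries came from shA673-1c, a derivative of A673 Ewing sarcoma cells in which doxycycline switches on a hairpin RNA directed at EWS::FLI1, the fusion oncogene of this tumour. All 4 groups were kept for 4 days in 1 µg per ml doxycycline, which per the labels lowered EWS::FLI1, and were then held in 5 µM actinomycin D, an inhibitor of transcription, for 0, 1, 2 or 4 h, with 3 biological replicates at each time. Cells with the fusion intact were not analysed here, and all values come from 1 cell line.

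Epithelial cells are joined by E-cadherin, encoded by CDH1, and mesenchymal cells carry N-cadherin and vimentin instead. SNAI and ZEB proteins are zinc finger repressors that bind E-box elements in CDH1 and other epithelial genes, TWIST proteins are basic helix-loop-helix factors, and PRRX1 is a homeobox factor of mesenchyme. In Ewing sarcoma lines the loss of the fusion is known to bring out mesenchymal features. With transcription blocked, no new mRNA replaces what is degraded, so the time course follows how fast each mRNA is lost relative to the others in the library.

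Library totals lay between 9381855 and 10929000 counts. Levels are given as CPM, counts scaled to a common library size with TMM factors. The mRNA pool is known to shrink under actinomycin D and the table held no spike-in, so a stable mRNA gains share over time and reads as higher. Scaled to cytosolic ribosomal protein mRNAs, the median log2 change of all tested genes at 4 h moved to -0.29, against 0.05 with TMM scaling. FLI1 itself, counted without telling the fusion from the intact gene, stood at 19.8 to 21.7 CPM at 0 h, and no library with the fusion intact was at hand to check the knockdown. Of the Ewing sarcoma markers, FLI1, EWSR1, NR0B1, NKX2-2, STEAP1 and CCND1 were detected in all 12 libraries, and CD99 was listed at 0 in all 12. Levels of NKX2-2 were low, at 0.106 to 2.55 CPM. CD99 lies in the pseudoautosomal region shared by X and Y, and how the counting treated such genes is not given in the sources used here, so that 0 is not read as a level. The summed level of the epithelial markers EPCAM, CDH1, KRT5, KRT14 and KRT20 lay between 0.529 and 1.08 CPM per library. CDH1 had at most 1 count, and 9 of 12 libraries had none. The 4 libraries of replicate 3 lay on the other side of 0 from the remaining 8 on the second principal component of the data, which held 15.9% of the variance, and results that rest on them are given with and without them.

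The data showed a wide spread of mRNA loss within this group of regulators. SNAI1 and SNAI2 mRNAs were nearly exhausted after 4 h, TWIST1, ZEB2 and ZEB1 fell less, TWIST2 did not pass the test at any time with TMM scaling, and VIM mRNA rose relative to the others. Scaled to ribosomal protein mRNAs, VIM did not rise and TWIST2 passed at 4 h. In the fit over all genes, edgeR's quasi-likelihood test with Benjamini-Hochberg adjustment, 1 of the 9 genes was called lower at 1 h, where 1.16% of all tested genes were, and 0 were called higher, against 0.172% of all genes. At 2 h 3 were lower, against 11.7% of all genes, and 0 higher, against 3.39%. At 4 h 5 were lower, against 24.6% of all genes, and 1 was higher, against 23.3%. Taking the libraries alone, all 3 lay below all 3 of 0 h for 4 genes at 1 h, 3 at 2 h and 5 at 4 h, against 9.55%, 18.3% and 27.5% of all genes. VIM was the 1 gene with all 3 libraries above those of 0 h at each of these times with TMM scaling, against 4.45%, 13.3% and 27.9% of all genes. The median log2 change of the 9 genes at 4 h was -0.93, beside 0.05 over all tested genes. That median is the value of PRRX1, which had few reads and was not called. At an unadjusted p under 0.05 the counts higher at 1 h and 2 h were also 0, against 355 and 1295 of all 12775 tested genes. DESeq2 gave 0 as well, against 40 and 477.

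**Figure D1:**
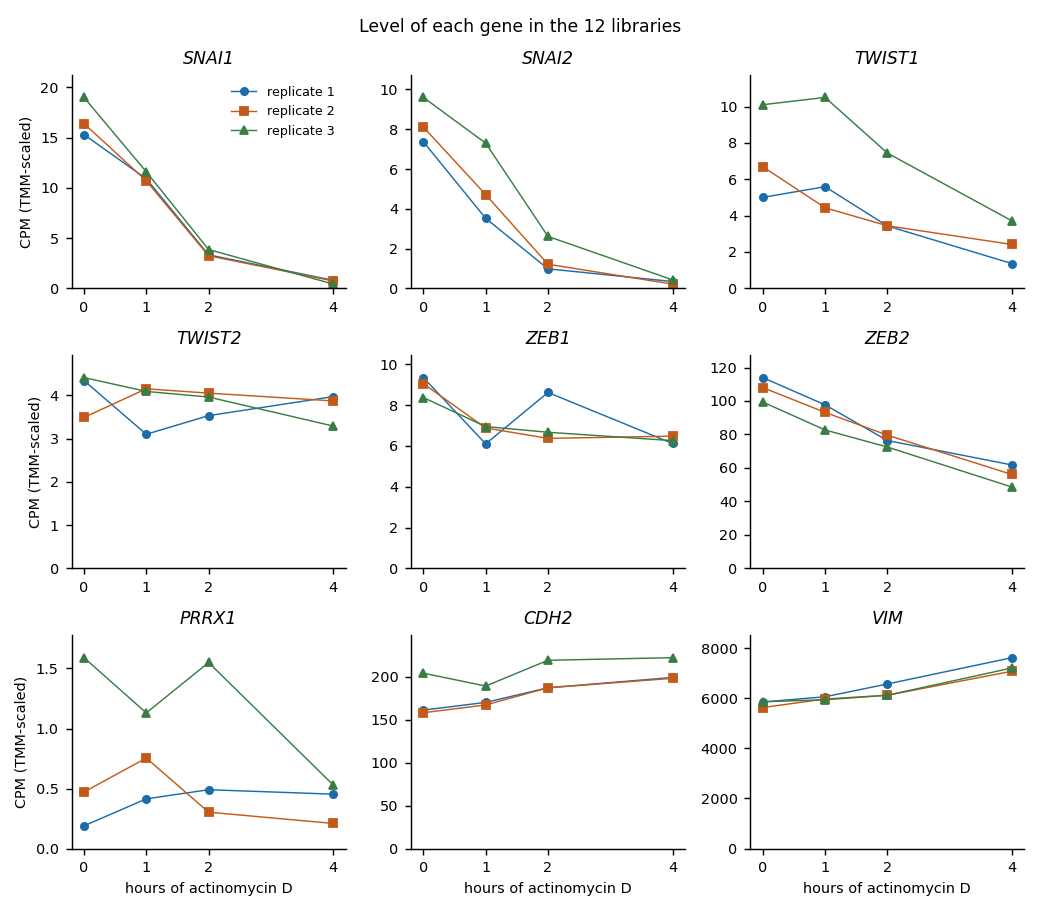
Level of each gene in CPM (vertical axis, from 0, with its own range in each panel) against hours of actinomycin D, with 1 point per library and lines joining libraries of the same replicate number. SNAI1 and SNAI2 approach 0 by 4 h in all 3 replicates, TWIST1 and PRRX1 are highest in replicate 3 at all 4 times, and VIM stands at 7080 to 7620 CPM at 4 h, against 5630 to 5860 CPM at 0 h, a rise that is absent under ribosomal protein scaling.

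SNAI1, which encodes the repressor Snail, stood at 15.3, 16.4 and 19.0 CPM at 0 h in replicates 1, 2 and 3, at 10.9, 10.7 and 11.6 CPM at 1 h, at 3.33, 3.24 and 3.86 CPM at 2 h and at 0.793, 0.732 and 0.424 CPM at 4 h. Each time point lay wholly below the one before it, with no overlap between their libraries. The 4 h libraries held 7, 7 and 4 SNAI1 reads, against 162, 174 and 216 at 0 h. At 4 h 3.84% of the 0 h level remained, and the fitted fall was 25.7-fold (log2 -4.68 with SE 0.20, adjusted p = 2.745e-09 in edgeR), seen in 3 of 3 replicates. SNAI1 ranked as number 14 from the lowest of 12775 tested genes at 4 h. The log2 change was -2.28 at 2 h (SE 0.15, adjusted p = 9.034e-07). At 1 h it was -0.61 (SE 0.13, adjusted p = 0.03927), again lower in 3 of 3 replicates. This call was lost on leaving out any 1 of the 6 libraries of 0 h and 1 h, and also 2 h replicate 1, 2 h replicate 2 or 4 h replicate 2, and over all 12 such fits the adjusted p ranged from 0.0301 to 0.154. With the replicate number as a block in the model, the 1 h change was called at adjusted p = 0.0002271.

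SNAI2, which encodes Slug, the other SNAI repressor expressed here, stood at 7.37, 8.11 and 9.60 CPM at 0 h, at 3.52, 4.71 and 7.30 CPM at 1 h, at 0.979, 1.21 and 2.61 CPM at 2 h and at 0.340, 0.209 and 0.424 CPM at 4 h. Replicate 3 was the highest of the 3 at every time, and at 1 h and 2 h it lay well above the others. The libraries of 1 h did not reach those of 0 h. SNAI2 fell 24.9-fold at 4 h (log2 change -4.64, SE 0.45, edgeR adjusted p = 3.153e-06) and was number 17 from the lowest of all tested genes. The 4 h value rests on 3, 2 and 4 reads, 9 in all, with an exact Poisson 95% interval of 4.12 to 17.1 that covers counting error only. At 2 h its log2 change was -2.37 (SE 0.33, adjusted p = 0.0002827). At 1 h it was -0.68 (SE 0.28) and missed the threshold (adjusted p = 0.4312), which it passed with the replicate block (adjusted p = 0.003935). SNAI3, the third gene of the family, had at most 1 read in any library and was not tested.

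The slope of log2 expression over the 4 times gave apparent half-lives, which hold for a loss at constant rate relative to the other mRNAs. SNAI1 had a slope of -1.16 per hour (edgeR adjusted p = 3.847e-09), equal to a half-life of 51.6 min with a 95% interval of 45.8 to 59.0 min. SNAI2 had a slope of -1.16 per hour (adjusted p = 2.855e-07), or 51.8 min with an interval of 43.4 to 64.4 min. Scaled to ribosomal protein mRNAs the half-lives were 48.2 min for SNAI1 and 48.6 min for SNAI2, and without the libraries of replicate 3 they were 55.0 and 48.0 min. Across the 9 genes, 5 slopes were called downward, against 25.5% of all genes, and 2 upward, against 25.3%.

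The mean loss of SNAI1 and SNAI2 was smaller in the first hour than in the second. SNAI1 changed by -0.60 ± 0.11 log2 units in the first hour, by -1.62 ± 0.06 in the second and by -1.07 ± 0.25 per hour between 2 and 4 h (SD, n = 3, log2 CPM with a prior count of 2). SNAI2 changed by -0.72 ± 0.32, by -1.63 ± 0.19 and by -0.85 ± 0.26 per hour over the same intervals. The prior count draws the last of these values toward 0 at such low counts. A contrast of the second hour with the first, added after these values were seen, was -1.05 for SNAI1 (SE 0.24) and -1.01 for SNAI2 (SE 0.54). Neither passed in the edgeR fit without the block (adjusted p = 0.3739 and 0.7232), in which 0 genes of the whole table were called lower and 0 higher, with 551 lower and 358 higher at an unadjusted p under 0.05 and 11 lower and 0 higher in DESeq2. With the replicate block SNAI1 was called (adjusted p = 0.006752) and SNAI2 was not (adjusted p = 0.07473), against 3.29% of all genes called lower and 2.37% higher. The planned comparison of the rate over the last 2 h with that over the first 2 h called none of the 9 genes in edgeR. Of all genes, 0.227% were called lower and 0.384% higher. With the block it again called none of the 9, against 5.46% and 7.39% of all genes. None passed at an unadjusted p under 0.05, against 703 lower and 873 higher of all 12775 tested genes. DESeq2 called none either, against 68 and 77.

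The pentamer ATTTA is the core of AU-rich elements, which in the 3′ untranslated region of many short-lived mRNAs are bound by proteins that speed decay. It was counted on the sense strand, overlaps included, in the principal transcript of each gene in GENCODE release 29 on GRCh38, which is not the annotation behind the counts. SNAI1 had 3 copies in 830 bases (3.61 per kb) and SNAI2 had 2 in 1203 bases (1.66 per kb), beside a median of 1.69 per kb over 11560 tested genes, 71.7% of which held at least 1. TWIST1 had 4.25 and TWIST2 4.07 per kb, ZEB1 had 4.13 and ZEB2 4.47, and PRRX1 had 2.78, CDH2 0.84 and VIM 3.11. A relation of this density to the loss of the mRNAs was not tested. The 3 sites of SNAI1 and the overlapping pair of TWIST1 are shown in DNA letters, 5′ to 3′, with the pentamers in capitals and with the position of the first one counted from the first base of the 3′ untranslated region.
SNAI1 position 573: ttcccgggcaATTTAacaatgtctg
SNAI1 position 733: gtacactggtATTTAtatttcaaac
SNAI1 position 815: aaagcagttaATTTAtatattaaaa
TWIST1 position 576: acaacattctATTTATTTAttgagg

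TWIST1, a factor of cranial and limb mesenchyme, stood at 5.00, 6.69 and 10.1 CPM at 0 h, at 5.59, 4.43 and 10.5 CPM at 1 h, at 3.43, 3.44 and 7.44 CPM at 2 h and at 1.36, 2.41 and 3.71 CPM at 4 h in replicates 1, 2 and 3. Replicate 3 was the highest at every time, and each replicate was lower at 4 h than at 0 h, the highest 4 h library lying below the lowest of 0 h. At 4 h 34.2% of the 0 h level remained (log2 change -1.54, SE 0.45, edgeR adjusted p = 0.01381). The call was lost on leaving out 0 h replicate 3 or 4 h replicate 1, with adjusted p up to 0.0581 over the fits that left out 1 library. With the replicate block the change at 4 h was -1.54 at adjusted p = 5.908e-08. At 2 h the log2 change of -0.61 was called only with the block (adjusted p = 0.004127, against 0.3901 without it), and at 1 h it was -0.08 (adjusted p = 1). The slope gave a half-life of 2.54 h with a 95% interval of 1.64 to 5.63 h, and 2.41 h without the libraries of replicate 3.

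TWIST2, the closest relative of TWIST1, stood at 4.34, 3.49 and 4.41 CPM at 0 h, at 3.10, 4.15 and 4.09 CPM at 1 h, at 3.53, 4.05 and 3.96 CPM at 2 h and at 3.97, 3.87 and 3.29 CPM at 4 h. The libraries of all 4 times overlapped. Its log2 change at 4 h was -0.14 with a 95% interval of -0.53 to 0.25 (edgeR adjusted p = 0.5511). Under ribosomal protein scaling it was -0.48 and passed the threshold (adjusted p = 0.0403). PRRX1 had 2 to 18 reads per library, with 0.189, 0.471 and 1.59 CPM at 0 h, 0.414, 0.754 and 1.13 CPM at 1 h, 0.490, 0.303 and 1.55 CPM at 2 h and 0.453, 0.209 and 0.530 CPM at 4 h in replicates 1, 2 and 3. Replicate 3 was the highest at every time, and the times overlapped. Its 95% interval at 4 h ran from -2.71 to 0.86 on the log2 scale (adjusted p = 0.3789). With the replicate block the interval ran from -1.98 to 0.17, and no change was detected.

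**Figure D2:**
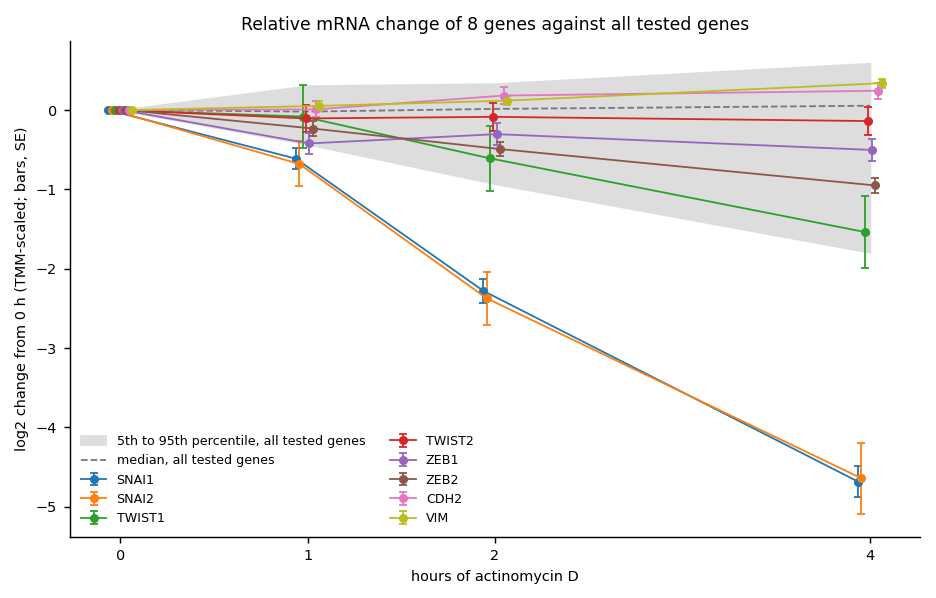
Log2 change from 0 h (vertical axis, TMM-scaled, bars showing SE) of 8 genes against hours of actinomycin D, over a grey band from the 5th to the 95th percentile of all tested genes. SNAI1 and SNAI2 reach -4.68 and -4.64 at 4 h, below the band, whose lower edge is -1.79, while the other 6 genes lie inside it at 4 h. PRRX1 is left out for its low counts.

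ZEB2, a zinc finger and homeodomain repressor, stood at 114, 108 and 99.4 CPM at 0 h, at 97.7, 93.2 and 82.7 CPM at 1 h, at 76.4, 79.6 and 72.5 CPM at 2 h and at 61.8, 56.1 and 48.6 CPM at 4 h. Every time point lay wholly below the one before it. The log2 change was -0.49 at 2 h (SE 0.09, edgeR adjusted p = 0.002788) and -0.95 at 4 h (SE 0.09, adjusted p = 4.151e-06), a 1.93-fold fall. At 1 h it was -0.23, called only with the replicate block (adjusted p = 0.00276, against 0.3841 without it). Its loss was even, at -0.23 ± 0.03 in the first hour, -0.26 ± 0.09 in the second and -0.23 ± 0.07 per hour between 2 and 4 h (log2 CPM, SD, n = 3). The half-life from its slope was 4.19 h (95% interval 3.51 to 5.22 h), and 3.02 h under ribosomal protein scaling.

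ZEB1, the other member of the family, stood at 9.35, 9.05 and 8.37 CPM at 0 h, at 6.10, 6.88 and 6.95 CPM at 1 h, at 8.62, 6.37 and 6.67 CPM at 2 h and at 6.12, 6.48 and 6.26 CPM at 4 h. The 4 h libraries lay below those of 0 h, and 2 h replicate 1 lay among those of 0 h. ZEB1 fell 1.42-fold at 4 h (log2 -0.50 with SE 0.14, adjusted p = 0.009929 in edgeR), lower in 3 of 3 replicates, while 1 h (-0.42, adjusted p = 0.2236) and 2 h (-0.30, adjusted p = 0.1738) missed the threshold. Its mean loss was not even, at -0.415 ± 0.171 in the first hour and 0.106 ± 0.329 in the second. Between 2 and 4 h it was -0.091 ± 0.133 per hour (log2 CPM, SD, n = 3). The contrast of the second hour with the first did not pass in edgeR (0.54, SE 0.24, adjusted p = 0.693). Its slope of -0.11 per hour (adjusted p = 0.03346) corresponds to 9.43 h with a 95% interval of 5.28 to 43.6 h, and to 5.07 h under ribosomal protein scaling. The slope call ended without any 1 of the 0 h or 4 h libraries (adjusted p up to 0.0939), without the 4 libraries of replicate 3 (adjusted p = 0.065) and without the filter on low counts (adjusted p = 0.056). The antisense gene ZEB1-AS1, at 4 to 17 reads per library against 54 to 99 for ZEB1, had a log2 change of -1.65 at 4 h (adjusted p = 0.001086). The strand setting of the counting was not given in the sources used here, so the share of antisense reads in the ZEB1 counts was not tested.

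ZEB1 and ZEB2 mRNAs are known targets of the miR-200 family, microRNAs of epithelial cells that base-pair through their seed with sites in the 3′ untranslated region. MicroRNAs were not measured here. The 5 mature sequences, from RefSeq on GRCh38.p14, fall into 2 seed groups and are shown 5′ to 3′ with the seed, bases 2 to 8, in capitals.
hsa-miR-200b-3p: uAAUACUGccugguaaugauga
hsa-miR-200c-3p: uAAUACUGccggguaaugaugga
hsa-miR-429: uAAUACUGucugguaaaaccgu
hsa-miR-200a-3p: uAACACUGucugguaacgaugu
hsa-miR-141-3p: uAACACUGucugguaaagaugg

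The reverse complements of these seeds, CAGTATT and CAGTGTT, were searched on the sense strand of the same GENCODE transcripts. ZEB1 held 5 copies of CAGTATT and 3 of CAGTGTT in 1938 bases, and ZEB2 held 5 and 4 in 5370 bases. Of all 11560 tested 3′ untranslated regions, 18.6% held CAGTATT, 20.4% held CAGTGTT and 0.0779% held 8 or more of both kinds together. The median length of these regions was 1183 bases, and the counts of sites were not adjusted for length. SNAI2 had 1 such site, and SNAI1, TWIST1, TWIST2, PRRX1, CDH2 and VIM had none. The first site of the CAGTATT kind in each ZEB gene is shown with the match in capitals.
ZEB1 position 369: tttatcttatCAGTATTatcactctta
ZEB2 position 392: taccatacatCAGTATTtttattatta

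CDH2, which encodes N-cadherin, stood at 161, 158 and 204 CPM at 0 h, at 170, 167 and 189 CPM at 1 h, at 187, 187 and 219 CPM at 2 h and at 199, 198 and 222 CPM at 4 h. The 0 h library of replicate 3 reached into the range of the 4 h libraries, while each replicate was higher at 4 h than at 0 h. At 4 h its log2 change of 0.24 (SE 0.10) missed the threshold in edgeR (adjusted p = 0.06701). It was called with the replicate block (adjusted p = 1.53e-05), without 0 h replicate 3 (adjusted p = 0.00699) and without the 4 libraries of replicate 3 (adjusted p = 0.0025), and it turned to -0.10 under ribosomal protein scaling. Its slope of 0.07 per hour was called (adjusted p = 0.02834), but not on leaving out 0 h replicate 1, 0 h replicate 2 or 4 h replicate 3 singly, with adjusted p up to 0.108, nor under library totals (0.03, adjusted p = 0.422) or ribosomal protein scaling, where the slope was -0.03. With the block CDH2 was also called higher at 2 h (log2 change 0.18, adjusted p = 0.001349).

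VIM, which encodes the intermediate filament protein vimentin, stood at 5850, 5630 and 5860 CPM at 0 h, at 6060, 5970 and 5940 CPM at 1 h, at 6570, 6120 and 6120 CPM at 2 h and at 7620, 7080 and 7210 CPM at 4 h. All 4 h libraries lay above all others. VIM rose 1.26-fold at 4 h (log2 change 0.34, SE 0.06, edgeR adjusted p = 0.0004132), a change that was 0.19 under library totals (adjusted p = 0.0128) and turned to -0.01 under ribosomal protein scaling (adjusted p = 0.965). With the replicate block it was also called at 2 h (log2 change 0.12, adjusted p = 0.001162). Its antisense partner VIM-AS1 averaged 3.69 CPM, with a log2 change of 0.01 at 4 h (adjusted p = 0.9693). With the block, 3 of the 9 genes were lower at 1 h, against 6.28% of all genes, and 0 higher, against 2.52%. With the block 4 were lower at 2 h, against 19.5%, and 2 higher, against 15.9%, and at 4 h 5 were lower, against 30.8%, and 2 higher, against 34.8%. Of the slopes 5 were called downward with the block, against 29% of all genes, and 2 upward, against 33%.

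**Figure D3:**
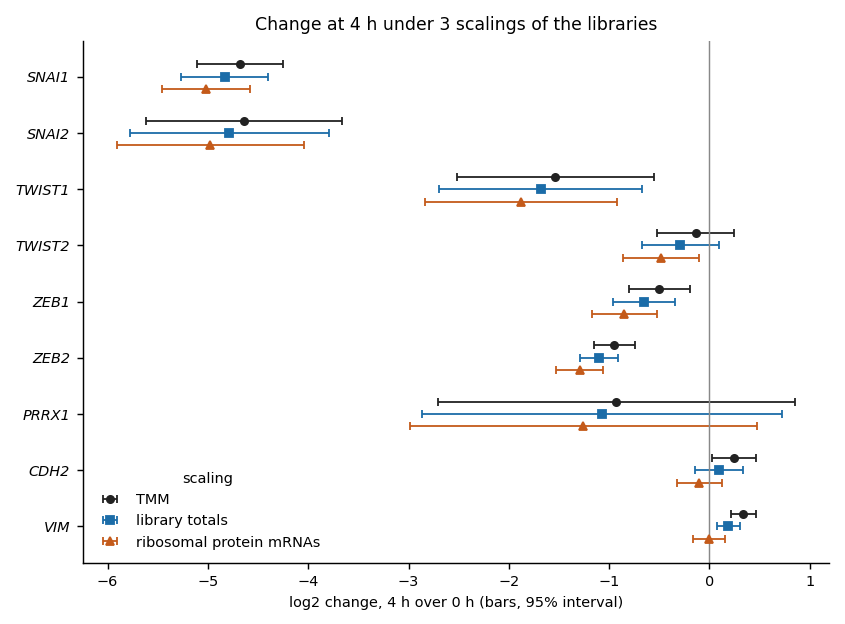
Log2 change at 4 h over 0 h (horizontal axis, bars showing 95% intervals) of the 9 genes under TMM scaling, library totals and ribosomal protein mRNA scaling. The whole intervals of SNAI1, SNAI2, TWIST1, ZEB1 and ZEB2 lie below 0 under all 3 scalings. The values of TWIST2 and PRRX1 also lie below 0, but their intervals include 0 except for TWIST2 under ribosomal protein scaling. The values of CDH2 and VIM lie above 0 under TMM and library totals and at -0.10 and -0.01 under ribosomal protein scaling. The intervals of both genes under ribosomal protein scaling include 0, as does that of CDH2 under library totals.

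The count ratio of related genes within a library does not depend on how libraries are scaled, and its slope over time shows whether both mRNAs were lost at different rates. For 4 pairs the slope of the log2 ratio (pseudocount 0.5) was tested by an exact two-sided permutation of the times over the 12 libraries, with p-values adjusted over the 4 pairs by Benjamini-Hochberg. TWIST1 was lost faster than TWIST2. Their count ratio lay between 0.343 and 1.13 at 4 h, against 1.15 to 2.30 at 0 h, and its log2 value changed by -0.39 per hour (exact permutation p = 0.008301, adjusted p = 0.0166). The ratio fell in 3 of 3 replicates. Without 4 h replicate 1 or 4 h replicate 2 the adjusted p of this pair rose above the threshold, to at most 0.0846. ZEB1 was lost more slowly than ZEB2. Their ratio lay between 0.0991 and 0.129 at 4 h, against 0.0818 to 0.0842 at 0 h, a slope of 0.14 per hour (exact permutation p = 0.008101, adjusted p = 0.0166). That call was lost without the 4 libraries of replicate 3 (slope 0.13, adjusted p = 0.16), and without 4 h replicate 2 or 4 h replicate 3, with adjusted p up to 0.0735.

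For SNAI1 over SNAI2 no difference in rate was detected, with a slope of -0.04 per hour (exact permutation p = 0.7251, adjusted p = 0.7251). SNAI1 had 1.00 to 3.50 times the reads of SNAI2 at 4 h, where single reads decide the ratio, against 1.98 to 2.08 times at 0 h. Replicate 3 had the lowest ratio at all 4 times. The slope was 0.06 without the libraries of replicate 3. For CDH2 over VIM the slope was -0.02 (exact permutation p = 0.5571, adjusted p = 0.7251), with a ratio of 0.0261 to 0.0309 at 4 h, against 0.0274 to 0.0348 at 0 h.

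**Figure D4:**
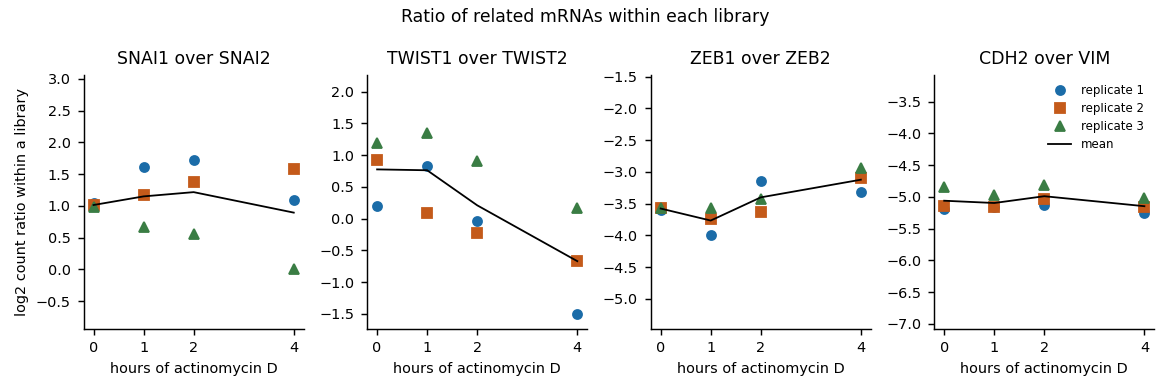
Log2 count ratio within each library (vertical axis) of 4 pairs of genes against hours of actinomycin D, with 1 point per library and the line joining the means. The slope is -0.39 per hour for TWIST1 over TWIST2 and 0.14 per hour for ZEB1 over ZEB2, whose mean dips at 1 h. The SNAI1 over SNAI2 ratios spread over 1.00 to 3.50 at 4 h, against 1.98 to 2.08 at 0 h.

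Levels were compared between genes per kb of the exons of each gene in GENCODE release 29, as CPM per kb. At 4 h ZEB2 led the factors at 4.16 ± 0.496 CPM per kb, ahead of TWIST2 at 1.98 ± 0.196 and TWIST1 at 1.50 ± 0.707, which overlapped each other (SD, n = 3). ZEB1, which overlapped TWIST1, had 0.977 ± 0.0282 CPM per kb, and it was followed by SNAI1 at 0.385 ± 0.117, SNAI2 at 0.134 ± 0.0446 and PRRX1 at 0.0513 ± 0.0216. At 0 h SNAI1 stood at 10.0 ± 1.13 CPM per kb, followed by ZEB2 at 8.02 ± 0.549, TWIST1 at 4.36 ± 1.56, SNAI2 at 3.44 ± 0.468, TWIST2 at 2.17 ± 0.273, ZEB1 at 1.39 ± 0.078 and PRRX1 at 0.0968 ± 0.0956. The 0 h libraries of TWIST1 and SNAI2 overlapped, and those of the other neighbours in this order did not. The order depends on the length used: per kb of the principal transcript, an alternative added after seeing the data, TWIST2 and TWIST1 did not overlap at 4 h, while at 0 h ZEB2 stood at 11.2 ± 0.769 and SNAI1 at 10.0 ± 1.13, which overlapped, as did TWIST2 and SNAI2. VIM and CDH2 were above all 7 factors at both times, with 3910 ± 151 and 46.4 ± 3.05 CPM per kb at 4 h, against 3090 ± 69.6 and 39.2 ± 5.79 CPM per kb at 0 h, values that depend on the scaling as given above.

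The replicates differed in the level of some of these genes at all times. Averaged over the 4 times, TWIST1 in replicate 3 was 1.97 times the mean of replicates 1 and 2, with 7.95 CPM against 3.84 and 4.24 CPM. For SNAI2 this factor was 1.51, for PRRX1 2.92, for CDH2 1.17 and for SNAI1 1.14. For ZEB2 it was 0.883, and replicate 3 was the lowest of the 3 at 0, 1, 2 and 4 h. TWIST1, SNAI2, PRRX1 and CDH2 were highest in replicate 3 at all 4 times, as were 15.8% of all tested genes.

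The time course nearest to that of SNAI1, among 10255 other genes of at least 5 CPM, was that of CITED2, with a root mean square difference of 0.296 log2 units over the 12 libraries after each gene was centred on its 0 h mean. RGS2 (0.311) and SGK1 (0.348) followed. SNAI2 was nearest to SPRY1 (0.383), SOX2 (0.404) and IER5 (0.427). TWIST1 was nearest to DLX1 (0.238), E2F2 (0.260) and GAB1 (0.274), and TWIST2 to CLUAP1 (0.0939), PAX8 (0.101) and TRAFD1 (0.108). ZEB1 was nearest to TRNT1, TMEM203 and TIMM10B (0.125 to 0.142), and ZEB2 to ZFHX3, NDUFV3 and RIPK1 (0.0953 to 0.0999). For CDH2 they were GLG1, CMC2 and GNB5 (0.0428 to 0.0509), for VIM SND1 and ANXA11 (0.0324 and 0.0350), and for PRRX1 ESCO2, RMI2 and GMPR (0.353 to 0.411). The PRRX1 course rests on 2 to 18 reads per library. ESCO2, RMI2 and GMPR had log2 changes of -0.232, -0.228 and -0.218 at 4 h, against -0.927 for PRRX1.

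Among 20 other transcription factors linked to the mesenchymal transition, 14 were tested, and 7 fell and 0 rose at 4 h in edgeR, against 24.6% and 23.3% of all genes. DESeq2 also called 0 higher, against 2587 of all 12775 tested genes, and an unadjusted p under 0.05 gave 1, against 3507. With the replicate block 9 were lower, against 30.8% of all genes, and 1 was higher, against 34.8%. A count of 1 higher was also reached without 0 h replicate 3 or without 1 h replicate 3. Ribosomal protein scaling gave 11 lower, against 5486 of all 12775 tested genes. Their median log2 change was -0.50, beside 0.05 for all genes. ZNF281, a zinc finger factor that induces SNAI1, fell 15.6-fold, to 2.66 ± 0.183 CPM at 4 h, against 41.8 ± 6.14 CPM at 0 h (log2 change -3.97, SE 0.17, adjusted p = 2.745e-09). FOXC1, a forkhead factor of mesenchyme, fell 7.60-fold, and FOXC2, its close relative, 7.50-fold. TCF3, which encodes the TWIST partner E2A, had a log2 change of 0.12 and HMGA2, a chromatin factor at 765 CPM at 0 h, one of 0.03, and neither passed the test.

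Of 32 other mesenchymal products, all tested, 22 rose, against 23.3% of all tested genes, and 0 fell, against 24.6%, at 4 h in edgeR. DESeq2 and an unadjusted p under 0.05 also gave 0 lower, against 3136 and 3453 of all 12775 tested genes. The list had a median log2 change of 0.39, which was 0.05, with 1 higher and 1 lower, under ribosomal protein scaling. Under that scaling 194 of all 12775 tested genes were higher and 5486 lower. ACTA2, which encodes smooth muscle actin, rose 1.39-fold, to 348 ± 4.79 CPM at 4 h, against 250 ± 8.18 CPM at 0 h (log2 change 0.48, SE 0.06, edgeR adjusted p = 3.616e-05). THY1, a surface protein of fibroblasts, rose 1.43-fold, ITGB1, the integrin beta-1 gene, 1.36-fold and S100A4, a calcium-binding protein gene, 1.28-fold. Under ribosomal protein scaling the changes of ACTA2 (0.14), ITGB1 (0.10) and S100A4 (0.02) missed the threshold, and that of THY1 did not.

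Of 32 epithelial genes in the table, 21 averaged under 1 CPM and 4 of those had no read in any library, and 11 were tested. At 4 h 1 of these fell, against 24.6% of all genes, and 2 rose, against 23.3%, with a median of 0.16. Library totals and ribosomal protein scaling each gave 2 lower. Under these scalings the median log2 change of all tested genes was -0.096 and -0.29, against 0.054 with TMM scaling. Ribosomal protein scaling called 5486 of all 12775 tested genes lower, against 3148 with TMM scaling. CLDN4, a tight junction claudin, fell 1.49-fold (log2 change -0.58, SE 0.15, edgeR adjusted p = 0.007055), and LLGL2, a cell polarity gene, and KRT8, a keratin of simple epithelia, rose 1.50-fold and 1.45-fold, calls that ended under ribosomal protein scaling. Of 19 tested corepressors and partners 9 fell, against 24.6% of all genes, and 5 rose, a share near the 23.3% of all genes, with a median of -0.21. SIN3A, a scaffold of histone deacetylase complexes, fell 5.33-fold, RCOR1, the partner of the demethylase KDM1A, 2.46-fold, and ID1 and ID2, which sequester basic helix-loop-helix factors, 7.09-fold and 5.32-fold. HDAC1, a histone deacetylase, had a log2 change of 0.43 (adjusted p = 0.0001746). The count of 5 ranged from 3 to 6 when 1 library was left out, and was 3 on dropping replicate 1 or 2 of 0 h or replicate 1 or 2 of 4 h. Over all tested genes the count higher ranged from 2306 to 2955 in such fits, against 2975 with all libraries. The counts of higher corepressors and epithelial genes were 1 and 2 under library totals, against 1346 of all 12775 tested genes. They were 0 and 0 under ribosomal protein scaling, against 194. Blocking on replicate number gave 7 and 6, against 34.8% of all genes.

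Of 20 tested genes for the turnover and control of SNAI, TWIST and ZEB proteins 15 fell, against 24.6% of all genes, and 1 rose, against 23.3%, at 4 h, with a median of -0.68. The count higher was 0 under ribosomal protein scaling, against 194 of all 12775 tested genes, and 3 with the block, against 34.8%. USP27X, a deubiquitinase described for Snail, fell 10.3-fold, SIAH1 and SIAH2, ubiquitin ligase genes, 9.01-fold and 3.05-fold, and FBXO11, an F-box gene described for Snail, 1.84-fold. Of 21 genes of TGF-beta signalling, a main inducer of this programme, 11 fell, against 24.6% of all genes, and 1 rose, against 23.3%, with a median of -0.53. TGIF1, a repressor of SMAD targets, fell 5.85-fold, the inhibitor gene SMAD7 5.29-fold, the signal transducer gene SMAD1 4.20-fold and SKIL, another repressor of SMAD targets, 2.20-fold. The receptor genes TGFBR1 and TGFBR2 had log2 changes of -0.22 and 0.08 and did not pass the test, and the ligand gene TGFB1 rose with a log2 change of 0.47 (edgeR adjusted p = 0.006241), a rise that was not called under library totals or ribosomal protein scaling.

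**Figure D5:**
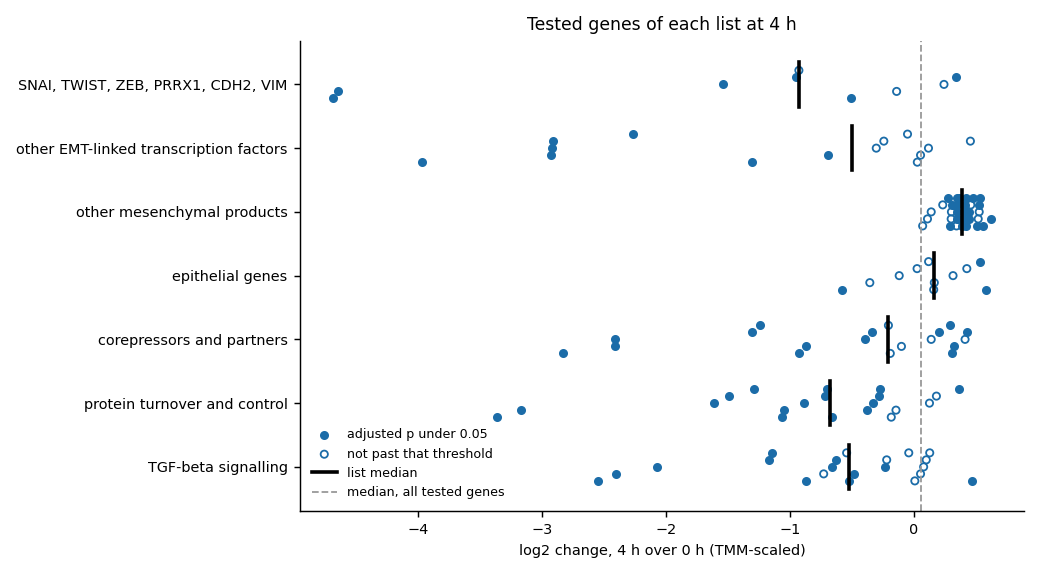
Log2 change at 4 h over 0 h (horizontal axis, TMM-scaled) of every tested gene of 7 lists, filled where the edgeR adjusted p is under 0.05, with a bar at each list median and a dashed line at the median of all tested genes. The mesenchymal products lie around a median of 0.39, which is 0.05 under ribosomal protein scaling, while the transcription factor and signalling lists reach from below -2 to above 0.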

How the data were processed

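The authors deposited raw read counts per gene symbol for 12 libraries, which the labels' protocols describe as TruSeq stranded. The submitters' processing notes list FastQC, STAR and hg19 and give no version. The counting program, annotation and strand setting are not given in the sources used here, so reads shared with antisense genes or with the processed pseudogenes SNAI1P1 and ZEB2P1 could not be separated.

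Tests on these counts used edgeR 4.0.16 (R 4.3.3). Of 26334 genes, 12775 passed filterByExpr (minimum count 10) and libraries were scaled by TMM. Quasi-likelihood tests over all 12 libraries compared 1, 2 and 4 h with 0 h and tested the slope per hour and the change of rate, with Benjamini-Hochberg adjustment over all tested genes and a threshold of 0.05. Each SE was derived from the log2 change and its F statistic. The code was checked on simulated data. Alternatives were other scalings, DESeq2 1.42.0, no filter, the replicate block and leaving out libraries. The contrast of the second with the first hour and the fits without replicate 3 were added after seeing the data.

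No 2 replicates matched within sampling noise (chi-square of 4.27 to 15.8 per degree of freedom). The labels call the replicates biological without saying more, so p-values measure the spread between these samples. The replicate numbers pair the libraries: deviations from the time means correlated at 0.263 to 0.649 within a number and at -0.501 to 0.16 between numbers. The 9 genes and the other lists were chosen with earlier results of these data known. Named are all 9 genes, the 3 nearest time courses of each and up to 4 called genes per list with the smallest adjusted p at 4 h; TCF3, HMGA2, HDAC1, TGFBR1, TGFBR2 and TGFB1 were added after their values were seen. Some items that this rule selects are not reported here. Of the other markers, the endothelial list summed to 3.87 to 6.27 CPM per library and the liver list to at most 0.566. Of single blood markers, CD68 averaged 34.3 CPM, HBB 17.4 and PTPRC 0.189, and CD3E was at 0 in all libraries.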

Additional observations from a re-analysis of the deposited data

How the results depend on the processing

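The 2 h and 4 h falls of SNAI1, SNAI2 and ZEB2, the 4 h fall of ZEB1 and the slopes of SNAI1, SNAI2, TWIST1 and ZEB2 kept their direction and their call under every alternative run. Among the 9 genes, the count lower at 1 h (1) became 0 under ribosomal protein scaling, without the filter on low counts and without the 4 libraries of replicate 3, and 3 with the replicate block. Over all tested genes this count was 114 under ribosomal protein scaling, 145 without the filter and 802 with the block. It was 148 with none of these changes. The count higher at 2 h (0) became 2 with the block and 1 without replicate 3. Over all tested genes it was 2037 and 274 in these fits, against 433. The count higher at 4 h (1) became 0 under ribosomal protein scaling and 2 with the block or without replicate 3. Over all tested genes it was 194 under ribosomal protein scaling and 4444 with the block, against 2975. PRRX1 did not pass the filter in the fit without replicate 3. The count of upward slopes (2) became 1 under library totals and 0 under ribosomal protein scaling. Over all tested genes upward slopes numbered 1348 and 86 under these scalings, against 3232 with TMM scaling. With the block 1 gene was called lower in the second hour than in the first. The block changed no call of the 4 pairs. Under ribosomal protein scaling CDH2 turned to -0.100 and VIM to -0.006 at 4 h, their slopes to -0.026 and -0.008, and PRRX1 at 2 h to -0.069, which was -0.012 under library totals. Without replicate 3 the slope of TWIST2 was 0.001, and the pair slopes were 0.064 for SNAI1 over SNAI2 and 0.126 for ZEB1 over ZEB2. As a difference of 4 h and 0 h alone, the log2 ratio changed by -1.445 for TWIST1 over TWIST2 and by 0.454 for ZEB1 over ZEB2, where 3 libraries against 3 cannot give an exact permutation p below 0.1.

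Leaving out 1 library at a time gave 0 to 1 genes lower at 1 h, 0 to 1 higher at 2 h, 1 to 2 higher at 4 h and 1 to 2 upward slopes. Over all tested genes these counts ranged from 44 to 153, 135 to 433, 2306 to 2955 and 2651 to 3221. The count lower at 4 h and the count of downward slopes were each 4 to 5. Over all tested genes these 2 counts ranged from 2893 to 3251 and from 2925 to 3334. The log2 changes at 1 h ranged from -0.534 to 0.229 for TWIST1, from -0.204 to 0.008 for TWIST2, from -0.396 to 1.205 for PRRX1 and from -0.052 to 0.128 for CDH2. Those of PRRX1 ranged from -0.915 to 1.214 at 2 h and from -1.365 to 0.235 at 4 h, the upper values without 0 h replicate 3. Pair slopes ranged from -0.108 to 0.080 for SNAI1 over SNAI2, from -0.478 to -0.279 for TWIST1 over TWIST2, from 0.113 to 0.158 for ZEB1 over ZEB2 and from -0.029 to 0.001 for CDH2 over VIM. The causes were not tested.

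Over all tested genes, the replicate block gave 802 lower and 322 higher at 1 h, against 148 and 22 without it, and 2496 and 2037 at 2 h, against 1496 and 433. It gave 697 and 944 for the change of rate, against 29 and 49. Ribosomal protein scaling gave 5486 lower and 194 higher at 4 h, against 3148 and 2975, and library totals gave 1346 higher. Low counts limit PRRX1 at all times and SNAI1 and SNAI2 at 4 h, where the libraries together held 18 and 9 reads.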
